A study of Mus musculus with 17 samples.

Results

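The 41 genes described here are type I interferon-stimulated genes, which cells switch on when type I interferon binds its receptor. A gene was kept when 1 feature of the array belonged to it alone, and where a gene had several such features the one with the highest mean was used; all 41 had exactly 1. They are 41 of 19938 genes measured in this way. The data are 17 arrays of the Affymetrix Mouse Gene 1.0 ST design, and a level below is the log2 of the deposited normalized intensity.

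Cells carrying CD11b were enriched on magnetic columns and sorted from spleens pooled over female BALB/c mice. The monocytic subset (Mo, called Mo-MDSCs in the labels) had much Ly-6C and little Ly-6G on its surface, and the granulocytic subset (PMN, called PMN-MDSCs) had the reverse. Donor mice were naive, with no tumour, or had been injected subcutaneously with 100000 Her-2/CT26 cells, a line derived from the CT26 mouse colon carcinoma, 3 or 6 weeks before. All groups share the strain, sex and organ. Mo had 3 arrays each from naive mice and from mice at 3 and 6 weeks, and PMN had 4, 2 and 2. The study asked what makes these cells more suppressive as a tumour grows. The labels do not say whether each replicate had its own spleen pool, so p-values measure array-to-array spread alone, and that spread may be technical.

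Type I interferons signal through a receptor made of IFNAR1 and IFNAR2. The kinases JAK1 and TYK2 then activate STAT2, which acts with IRF9 in the complex ISGF3, and ISGF3 switches on genes that carry an interferon-stimulated response element. The products include sensors of foreign nucleic acid, enzymes and binding proteins that block virus growth, and regulators that amplify or end the response. Monocytes and neutrophils both respond to these cytokines, and the basal level of such genes in resting mice is commonly used as a readout of tonic interferon signalling.

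The promoters of some of these genes carry the element through which ISGF3 acts. Of the 41 genes, 30 had an entry in the RefSeq promoter table of GRCm38.p6, and the 250 bases before the start were searched on both strands for GAAANNGAAA, the core of the interferon-stimulated response element. It occurred in 9 of the 30, 30%, against 936 of 27025 genes, 3.46%. The palindrome TTCNNNGAA, bound by STAT dimers, occurred in 5 of the 30, 16.7%, against 8.13%. A match describes letters and not a site in use, and its absence says nothing outside this window.

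In PMN at 6 weeks Ifit1, Ifit3, Rsad2 and Bst2 were called lower than in naive mice and Stat2 and Oas3 higher, as described below. These calls were not all stable to scaling. On a joint quantile scale Oas3 turned negative and Stat2 did not pass. With each array centred on its median Ifit1 did not pass. Promoter stretches of these 6 genes, all with a match, are shown because the calls separate them. Slfn5, also called lower, and Oas1a and Trim30a, which did not pass, had a match too and are not shown. Each runs from 15 bases before its first match to the base before the start given in the table, in the direction of the gene, with each match in capitals. The regions are chr19:34640770-34640888 (plus strand) for Ifit1, chr19:34583358-34583528 (plus) for Ifit3, chr12:26456453-26456587 (minus) for Rsad2, chr8:71537473-71537617 (minus) for Bst2, chr10:128270261-128270497 (plus) for Stat2 and chr5:120777660-120777749 (minus) for Oas3.
Ifit1: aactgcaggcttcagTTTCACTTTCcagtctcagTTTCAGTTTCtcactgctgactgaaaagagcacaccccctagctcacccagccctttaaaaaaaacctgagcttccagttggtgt
Ifit3: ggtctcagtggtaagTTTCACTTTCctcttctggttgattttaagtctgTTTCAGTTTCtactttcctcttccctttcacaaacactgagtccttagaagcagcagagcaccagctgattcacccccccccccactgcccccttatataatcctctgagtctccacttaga
Rsad2: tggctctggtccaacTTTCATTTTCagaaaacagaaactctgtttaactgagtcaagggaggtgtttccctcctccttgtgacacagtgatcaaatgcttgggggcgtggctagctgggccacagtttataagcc
Bst2: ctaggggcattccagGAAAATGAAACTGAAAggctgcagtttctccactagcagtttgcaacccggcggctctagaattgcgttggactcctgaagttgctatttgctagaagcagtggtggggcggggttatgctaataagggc
Stat2: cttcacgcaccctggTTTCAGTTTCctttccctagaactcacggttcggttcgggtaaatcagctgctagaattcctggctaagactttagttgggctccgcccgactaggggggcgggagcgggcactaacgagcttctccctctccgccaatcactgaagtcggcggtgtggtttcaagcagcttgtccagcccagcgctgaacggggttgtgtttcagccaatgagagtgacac
Oas3: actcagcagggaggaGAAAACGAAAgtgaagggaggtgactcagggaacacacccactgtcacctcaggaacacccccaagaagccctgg
Ifit1 and Ifit3 each hold 2 separate matches, and the 2 matches of Bst2 overlap by 4 bases; Rsad2, Stat2 and Oas3 hold 1. In Ifit1, Ifit3, Rsad2 and Stat2 the core reads in the reverse direction relative to the gene, and in Bst2 and Oas3 in the forward direction.

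The sorted subsets carried the markers of their labels. The summed intensity of 8 monocyte markers lay between 14.90 and 15.17 on the log2 scale in the Mo arrays and between 10.81 and 11.43 in the PMN arrays, and that of 12 neutrophil markers lay between 11.25 and 14.59 in Mo and between 15.11 and 16.28 in PMN. The subsets were treated as normalized separately, since arrays of 1 subset shared more identical values (median 942.5 for pairs of Mo arrays and 251 for pairs of PMN arrays) than pairs across subsets (146), so no level in Mo is tested against a level in PMN. Some arrays stood apart within their group. The 6-week Mo array of replicate 1 had the highest interferon-stimulated level of its group, above the group mean for 38 of the 41 genes, and the 6-week Mo array of replicate 2 carried neutrophil messages, with Ly6g at 8.95 against 6.56 and 6.43 in the other two. The 3-week Mo array of replicate 1 lay below its group mean for all 41 genes, and the naive Mo array of replicate 3 lay above it for 40.

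In Mo cells the interferon-stimulated genes were lower 6 weeks after tumour injection than in naive mice, and none was higher. Of the 41 genes, 37 fell at an adjusted p below 0.05 (limma, Benjamini-Hochberg over all 19938 genes), which is 90.2% of them, against 24.4% of all genes tested; 0 rose, against 21.8%. The median change of the 41 was -0.94 on the log2 scale, against -0.09 for all genes; centring each array on its median shifted the latter by 0.12 and left 33 of the falls. The 4 that did not pass were Isg20, an exonuclease, at -0.30, the ubiquitin ligase Trim25 at -0.18, and the partner proteins Ifi35 at -0.16 and Nmi at 0.14. All 3 arrays at 6 weeks lay below all 3 naive arrays for 38 genes, 92.7% of them, against 31.4% of all genes. In RNA from a sorted population, fewer cells of one kind and less RNA in each cell cannot be told apart.

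**Figure D1:**
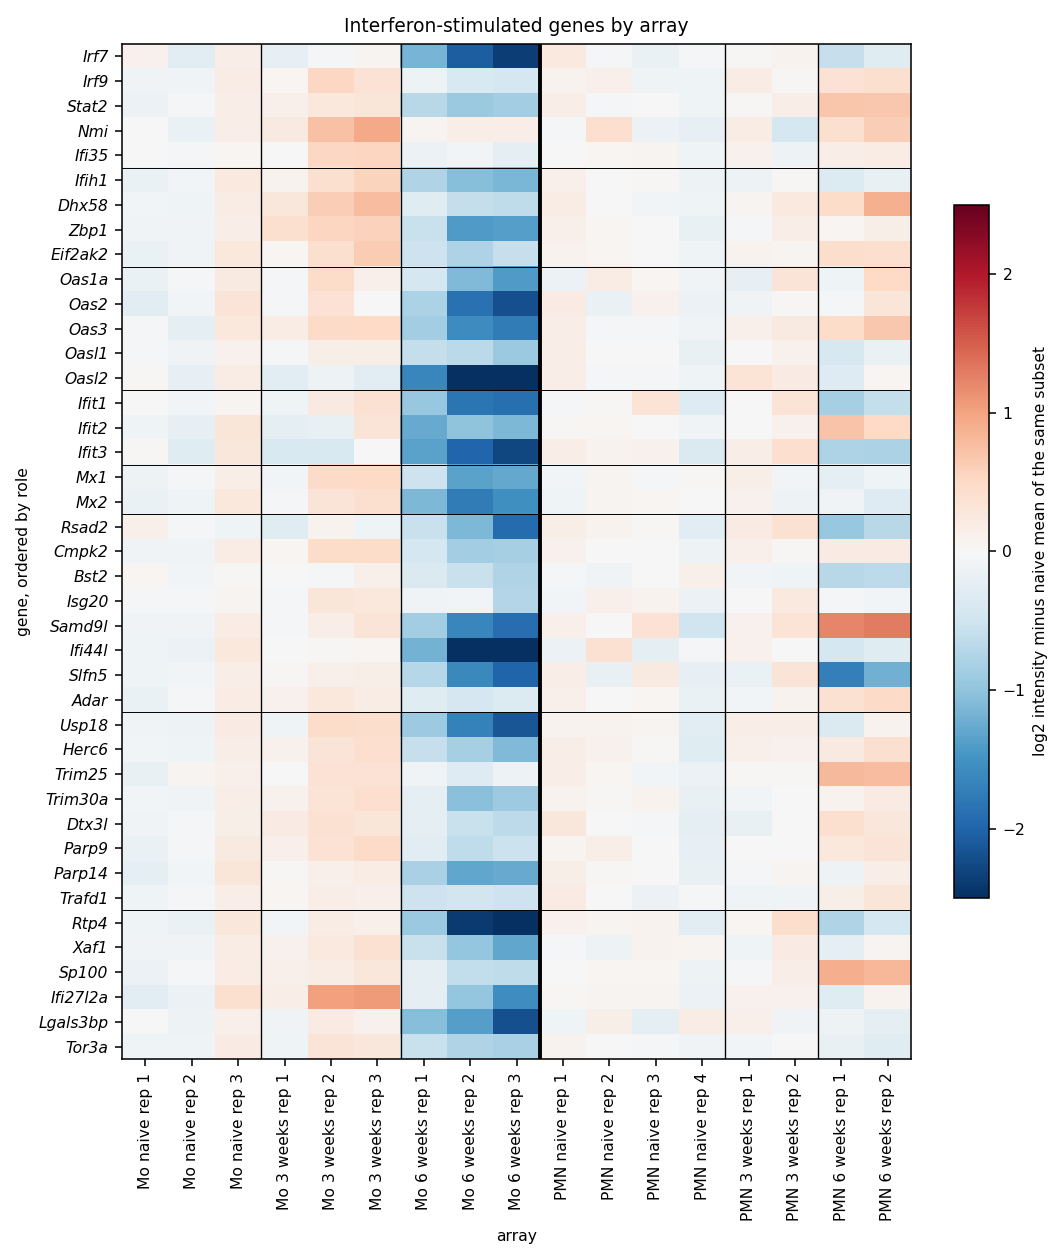
Log2 intensity of each of the 41 interferon-stimulated genes in each of the 17 arrays, as the difference from the naive mean of the same subset (colour, log2 units, limited at 2.5 either way). Rows are ordered by role and columns by subset, time and replicate; in the Mo columns at 6 weeks most genes are blue (lower), with replicate 1 palest, while the PMN columns at 6 weeks hold both colours, and the direction of several PMN genes turned under joint quantile normalization.

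The fall lay between 3 and 6 weeks. Against the 3-week arrays, 39 of the 41 genes were lower at 6 weeks, 95.1%, against 3.13% of all genes tested, and 0 were higher, against 4.38%. The median change was -1.12 against -0.03 for all genes. Every one of the 41 had its 3 arrays at 6 weeks below its 3 arrays at 3 weeks, a separation seen in 6.8% of all genes. Only 624 genes of the whole table were lower in this comparison, and these 39 were 6.25% of them. The 50 largest falls of the table held 15 of the genes and the 100 largest held 25. Isg20 (adjusted p = 0.0623) and Nmi (adjusted p = 0.155) did not pass. This comparison and that with naive mice share the 6-week arrays, so their counts are not independent.

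From naive to 3 weeks the Mo arrays showed little that passed the test. Dhx58, which encodes the RNA helicase LGP2, was the 1 gene of 41 that passed, at 0.55 (adjusted p = 0.0373), against 5.2% of all genes that were higher; 0 were lower, against 0.833%. The point estimates were above 0 for 36 of the 41 genes with a median of 0.20, and 14 had an unadjusted p below 0.05, all of them higher, against 32.9% of all genes in either direction. The median is not stable to scaling, since joint quantile normalization of all arrays gave -0.04. Without the 3-week array of replicate 1, which was low for all 41 genes, 15 passed, as did 8911 of all 19938 genes. Without the naive array of replicate 3, which was high for 40, 7 passed, as did 2517 of all genes. The counts of all genes are in either direction. Leaving out either of the other naive or 3-week arrays gave 0.

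**Figure D2:**
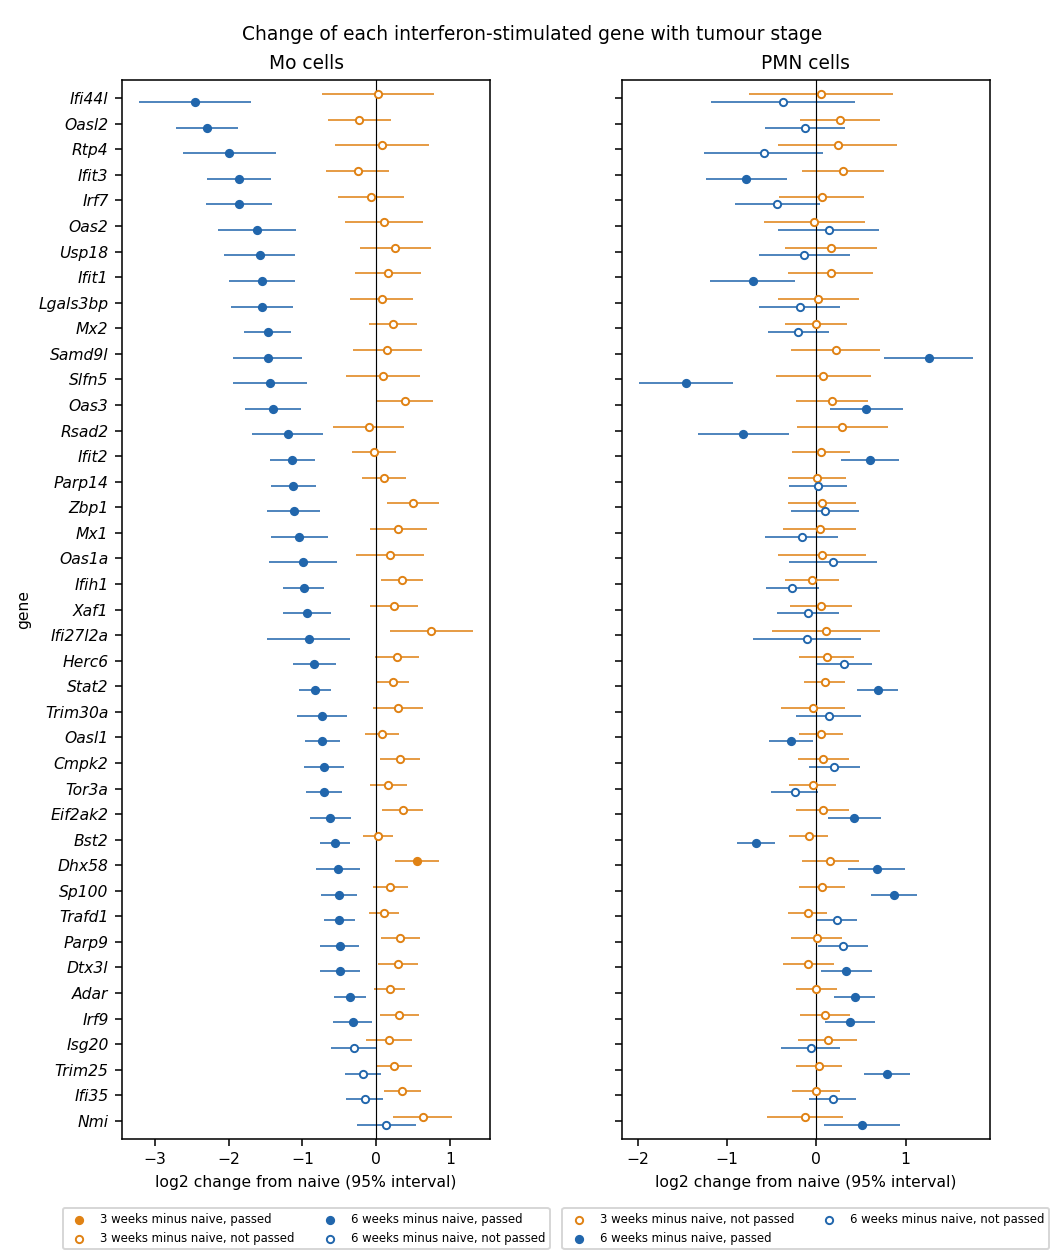
Change of each of the 41 genes from naive on the log2 scale (points) with 95% intervals (lines), at 3 weeks in orange and 6 weeks in blue, in Mo (left) and PMN (right). Filled points passed at an adjusted p below 0.05. The genes are ordered by the Mo change at 6 weeks, which ran from -2.46 for Ifi44l to 0.14 for Nmi; the PMN changes ran from -1.46 for Slfn5 to 1.26 for Samd9l, the latter falling short of the threshold at 0.48 under joint quantile normalization.

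Among the transcription factors, Irf7 and Stat2 changed most in Mo. Irf7 encodes the factor that amplifies the response by driving interferon genes themselves, and its levels were 10.80, 10.44 and 10.86 in the naive arrays, 10.50, 10.64 and 10.76 at 3 weeks and 9.54, 8.64 and 8.35 at 6 weeks. All 3 arrays at 6 weeks lay below the others, replicate 1 least so, and the naive and 3-week arrays overlapped. The change from naive was -1.86 (95% interval -2.30 to -1.41, adjusted p = 1e-05), a 3.62-fold fall. Stat2, a subunit of ISGF3, stood at 9.40, 9.53 and 9.72 in the naive arrays, 9.67, 9.81 and 9.85 at 3 weeks and 8.85, 8.63 and 8.68 at 6 weeks. Its 6-week arrays were close together and below all others. Stat2 fell by 0.83 from naive (95% interval -1.05 to -0.62, adjusted p = 2.01e-05) and by 1.06 from 3 weeks (adjusted p = 2.75e-06). Irf9, the DNA-binding subunit of ISGF3, fell by 0.32, close to the threshold (adjusted p = 0.0486), and lost the call when each array was centred on its median (-0.20, adjusted p = 0.284). Nmi and Ifi35, which bind each other and modulate signalling, changed by 0.14 and -0.16 from naive without passing.

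All 4 sensors of nucleic acid fell at 6 weeks, by 0.52 to 1.12. Zbp1, which recognises nucleic acid in the Z form and can trigger cell death, had levels of 9.31, 9.33 and 9.59 in the naive arrays, 9.81, 9.94 and 9.99 at 3 weeks and 8.85, 7.998 and 8.03 at 6 weeks. The 3-week arrays were all above the naive ones and the 6-week arrays all below, with replicate 1 nearest to them. Its change was -1.12 from naive (adjusted p = 0.000144) and -1.62 from 3 weeks (adjusted p = 6e-06). Ifih1 encodes MDA5, the receptor for long double-stranded RNA. Its levels were 9.48, 9.57 and 9.88 in the naive arrays, 9.74, 10.05 and 10.19 at 3 weeks and 8.90, 8.57 and 8.51 at 6 weeks. The 6-week arrays again did not overlap with any other, and the change from naive was -0.98 (95% interval -1.27 to -0.70, adjusted p = 5.58e-05). The related helicase gene Dhx58 changed by -0.52, which missed the threshold under median centring (-0.39, adjusted p = 0.0618). Eif2ak2, encoding the RNA-activated kinase PKR that stops translation, changed by -0.62 (adjusted p = 0.00217).

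The OAS family makes oligoadenylates that activate RNase L, or resembles such enzymes, and all 5 members measured fell. Oasl2 had levels of 9.71, 9.48 and 9.87 in the naive arrays, 9.41, 9.55 and 9.41 at 3 weeks and 8.06, 7.06 and 7.03 at 6 weeks. Its 6-week arrays were all more than a log2 unit below every other Mo array. The fall of 4.92-fold (log2 change -2.30, 95% interval -2.72 to -1.88, adjusted p = 5.51e-07) was the second largest of the 41 genes. Oas2 stood at 8.89, 9.09 and 9.47 in the naive arrays, 9.13, 9.50 and 9.15 at 3 weeks and 8.35, 7.29 and 6.95 at 6 weeks. Replicate 1 of the 6-week arrays was the highest of its group by a wide margin and still below every naive array. The change was -1.62 (adjusted p = 0.000189), with -1.39 for Oas3, -0.99 for Oas1a and -0.73 for Oasl1. Oasl1, a translational brake on Irf7 messenger RNA, had levels of 8.57, 8.50 and 8.71 in the naive arrays, 8.56, 8.74 and 8.74 at 3 weeks and 7.996, 7.93 and 7.68 at 6 weeks, with the 6-week arrays lowest. Oas1a has near-identical paralogs in the mouse, so its value may hold more than 1 gene, as may those of Ifit3 and Trim30a.

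The IFIT proteins bind viral RNA and block its translation, and all 3 measured members fell. Ifit3 had levels of 7.84, 7.50 and 8.09 in the naive arrays, 7.44, 7.44 and 7.81 at 3 weeks and 6.48, 5.83 and 5.55 at 6 weeks. The 6-week arrays lay below the other 6, and replicate 1 was the highest of them. The change was -1.86 (95% interval -2.29 to -1.43, adjusted p = 6.61e-06), a 3.63-fold fall. Ifit1 stood at 7.401, 7.30 and 7.44 in the naive arrays, 7.27, 7.61 and 7.76 at 3 weeks and 6.44, 5.56 and 5.50 at 6 weeks. It showed the same arrangement of arrays. Its change was -1.55 (adjusted p = 5.58e-05), and that of Ifit2 was -1.14 (adjusted p = 2.86e-05).

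The Mx genes encode dynamin-like GTPases that trap viral components; the Mx1 allele of BALB/c mice is known to be defective as a protein, but its transcript can be measured. Mx2 had levels of 7.30, 7.36 and 7.72 in the naive arrays, 7.42, 7.79 and 7.85 at 3 weeks and 6.32, 5.71 and 5.92 at 6 weeks. Its 6-week arrays did not overlap with the others, and the change from 3 weeks, -1.70 (95% interval -2.02 to -1.38), had the smallest adjusted p of the 41 genes in that comparison (1.59e-06). Mx1 stood at 7.68, 7.77 and 7.98 in the naive arrays, 7.74, 8.29 and 8.31 at 3 weeks and 7.30, 6.49 and 6.53 at 6 weeks. Replicate 1 at 6 weeks lay nearest to the naive arrays. Mx1 changed by -1.04 from naive (adjusted p = 0.000503) and by -1.34 from 3 weeks (adjusted p = 9.35e-05).

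Of the 8 other antiviral effectors, 7 fell. Ifi44l, a strongly inducible gene of unsettled function, had the largest fall of the 41 and the widest spread at 6 weeks, with levels of 11.39, 11.36 and 11.76 in the naive arrays, 11.50, 11.53 and 11.55 at 3 weeks and 10.32, 8.85 and 7.97 at 6 weeks. The 6 naive and 3-week arrays lay close together, while the 3 at 6 weeks were spread over a far wider range, all below them. Its change was -2.46 (95% interval -3.22 to -1.70, adjusted p = 0.000108), a 5.5-fold fall. Samd9l, which restrains translation and growth, stood at 9.05, 9.05 and 9.33 in the naive arrays, 9.10, 9.31 and 9.47 at 3 weeks and 8.28, 7.51 and 7.24 at 6 weeks. Its 6-week arrays lay below the rest, replicate 1 least, and its change was -1.47 (adjusted p = 0.000142). Slfn5, a schlafen family gene, stood at 11.06, 11.09 and 11.32 in the naive arrays, 11.19, 11.28 and 11.30 at 3 weeks and 10.44, 9.55 and 9.15 at 6 weeks. The change was -1.44 (adjusted p = 0.000295), with no overlap between 6 weeks and earlier.

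Rsad2 encodes viperin, a radical SAM enzyme that makes a chain-terminating nucleotide, and had levels of 8.39, 8.23 and 8.15 in the naive arrays, 7.96, 8.35 and 8.16 at 3 weeks and 7.70, 7.12 and 6.34 at 6 weeks. The 6-week arrays were spread but all below the others. Rsad2 changed by -1.20 (adjusted p = 0.000892), and Cmpk2, its neighbour on the chromosome and a nucleotide kinase, by -0.71 (adjusted p = 0.000671). Bst2, encoding the tetherin that holds virions at the cell surface, stood at 8.85, 8.74 and 8.82 in the naive arrays, 8.80, 8.76 and 8.93 at 3 weeks and 8.44, 8.25 and 8.06 at 6 weeks. The spread was small in every group and the 6-week arrays were lowest, with a change of -0.56 (95% interval -0.76 to -0.35, adjusted p = 0.00049). Adar, the RNA-editing deaminase, changed by -0.35, a call that median centring ended (-0.23, adjusted p = 0.103).

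Genes of ubiquitin, ISG15 and ADP-ribose transfer and of feedback fell in 7 of 8 cases. Usp18 removes ISG15 from proteins and shuts off signalling at the interferon receptor, and its levels were 8.47, 8.43 and 8.75 in the naive arrays, 8.45, 9.01 and 8.98 at 3 weeks and 7.64, 6.86 and 6.41 at 6 weeks. All 6-week arrays were below all others, replicate 1 least so. The change was -1.58 (95% interval -2.07 to -1.10, adjusted p = 9.89e-05). Parp14, an ADP-ribosyltransferase, stood at 9.94, 10.08 and 10.46 in the naive arrays, 10.18, 10.28 and 10.34 at 3 weeks and 9.35, 8.86 and 8.90 at 6 weeks. Its 6-week arrays did not overlap with the others, and it changed by -1.12 (adjusted p = 3.1e-05). Herc6, the ISG15 ligase of the mouse, changed by -0.84, and Trim30a, Trafd1, Parp9 and its partner Dtx3l changed by -0.49 to -0.73. Parp9 lost its call under median centring (-0.37, adjusted p = 0.0508).

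Of the 6 remaining genes, all fell. Rtp4, an interferon-induced chaperone of membrane receptors, had levels of 9.91, 9.85 and 10.29 in the naive arrays, 9.94, 10.21 and 10.14 at 3 weeks and 9.10, 7.63 and 7.34 at 6 weeks. Its 6-week arrays spanned a wide range, replicate 1 lying well above the other two, and none overlapped with earlier arrays. The change was -1.99 (95% interval -2.63 to -1.36, adjusted p = 0.000136). Lgals3bp, a secreted glycoprotein gene, stood at 10.13, 10.01 and 10.25 in the naive arrays, 10.04, 10.34 and 10.24 at 3 weeks and 9.06, 8.75 and 7.93 at 6 weeks. Every 6-week array was below every earlier one, and the change was -1.55 (adjusted p = 3.52e-05). Xaf1, Ifi27l2a, Tor3a and Sp100 changed by -0.50 to -0.94; for Ifi27l2a the 6-week and naive arrays overlapped although it passed (adjusted p = 0.0135).

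**Figure D3:**
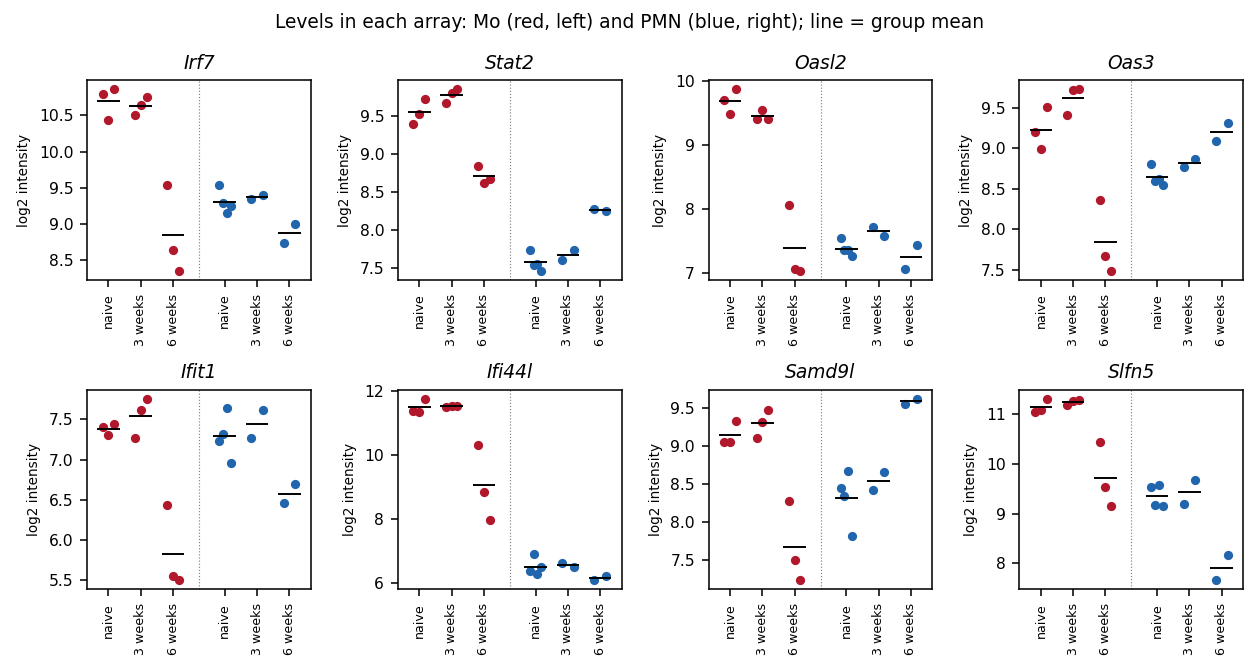
Log2 intensity of 8 of the genes in each array (points), with the group mean (line), for Mo (red, left of the dotted line) and PMN (blue, right) in naive mice and at 3 and 6 weeks. The vertical scales differ between genes, and levels are not compared between genes or between subsets. All 8 show Mo points at 6 weeks below the earlier ones; in PMN, Slfn5 and Ifit1 are lower at 6 weeks and Samd9l, Stat2 and Oas3 higher, with Oas3 turning to -0.21 under joint quantile normalization.

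The level of the interferon-stimulated genes in the 6-week Mo arrays moved with markers of other cell states. Averaged over the 41 genes, the arrays of replicates 1, 2 and 3 at 6 weeks stood at 8.53, 8.03 and 7.86, where naive arrays stood between 9.05 and 9.33. The summed intensity of 8 markers of early granulocyte precursors was 12.34, 13.25 and 13.71 in those arrays, against 9.73 to 10.01 in naive arrays. That of 10 proliferation markers was 12.97, 13.60 and 13.95, against 9.97 to 10.98. That of 12 markers of macrophages and nonclassical monocytes was 12.69, 11.85 and 11.78, against 12.83 to 13.07, and 6 of the 12 were lower at 6 weeks and 1 higher. That of 12 neutrophil markers was 13.44, 14.59 and 13.56, against 11.25 to 11.64, with 9 of the 12 higher, 1 lower and a median change of 1.91. B cell markers and T and NK cell markers were lower for 7 of 9 in each list. So were 24 of 36 olfactory receptor genes, a comparison list described below. Of all genes, 21.8% were higher and 24.4% lower in this comparison. The 6-week array with the most precursor and proliferation signal thus had the least interferon-stimulated signal, over 3 arrays. Within the other Mo groups the order ran the other way. Naive replicate 3 had the most proliferation signal (10.98), the most precursor signal (10.01) and the highest interferon-stimulated average (9.33). At 3 weeks replicate 1 had the least of each (10.43, 9.915 and 9.16). The part of these markers in the falls was not tested. In the 6-week arrays the summed intensity of 8 monocyte markers was 15.12, 15.11 and 15.11, against 14.90 to 15.05 in naive arrays. That sum is weighted to its brightest genes. Taken singly, 3 of the 8 were higher at 6 weeks and 3 lower, with changes from -1.64 to 0.66. Leaving out the array of replicate 1 gave 38 genes lower than naive and 40 lower than at 3 weeks, and leaving out that of replicate 2, which carried neutrophil messages, gave 36 and 39.

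In PMN cells the same 41 genes split. At 6 weeks 12 were higher than in naive mice and 6 were lower, and 23 did not pass. These are 29.3% and 14.6% of the genes, against 25.5% of all genes higher and 40% lower, since most of the PMN transcriptome differed between the groups. The median change of the 41 was 0.10, against -0.18 for all genes, and the arrays at 6 weeks lay above the naive arrays for 15 genes and below for 11, where 28.8% and 51.4% of all genes did so. How the arrays were scaled mattered here: with each array centred on its median, which shifted the median change of all genes by 0.20, the split was 17 higher and 4 lower, and with joint quantile normalization of all 17 arrays, which shifted it by 0.13, the split was 4 higher and 17 lower. Of all 19938 genes, centring called 5916 higher and 3270 lower, and the joint scale 4287 and 5328. Of the 18 genes, 7 passed in the same direction under both scalings. They were Dhx58, Eif2ak2 and Ifit2, which rose, and Slfn5, Rsad2, Bst2 and Ifit3, which fell. Some of these were dim: Eif2ak2 and Ifit2 had naive means of 5.92 and 5.94, and Ifit3 a 6-week mean of 5.61. With a floor at log2 6 the PMN calls were 9 higher and 4 lower, and 9609 of all 19938 genes passed in either direction. Without 6-week replicate 1 the calls were 7 higher and 3 lower, 10 in all; of the 18, 9 were called whichever array was left out. Other cell markers moved in the same PMN arrays: 10 of 10 proliferation markers were higher (median 2.60; summed intensity 12.39 and 12.70 at 6 weeks against 9.89 to 9.97 in naive arrays), as were 6 of 8 precursor markers and 9 of 12 neutrophil markers, and 9 of 9 B cell markers were lower (median -1.40; 10.20 and 10.30 against 11.60 to 11.83). The part of these markers in the PMN results was not tested.

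Slfn5 had the largest PMN change of the 41 genes. Its levels were 9.53, 9.18, 9.58 and 9.16 in the naive arrays, 9.20 and 9.68 at 3 weeks and 7.65 and 8.16 at 6 weeks. Both 6-week arrays were far below every earlier array. The change of -1.46 (95% interval -1.99 to -0.93, adjusted p = 0.000153), a 2.75-fold fall, was among the 50 largest falls of the whole table. Rsad2 stood at 8.93, 8.86, 8.80 and 8.52 in the naive arrays, 8.98 and 9.16 at 3 weeks and 7.84 and 8.09 at 6 weeks. Here too the 6-week arrays lay below all others, and the change was -0.81 (adjusted p = 0.00783). Bst2 stood at 8.06, 8.005, 8.10 and 8.21 in the naive arrays, 8.03 and 7.99 at 3 weeks and 7.39 and 7.45 at 6 weeks, with tight groups and the 6-week pair lowest. Its change was -0.67 (95% interval -0.89 to -0.46, adjusted p = 4.79e-05).

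Within the IFIT family the PMN changes went both ways. Ifit3 had levels of 6.55, 6.48, 6.502 and 6.03 in the naive arrays, 6.56 and 6.81 at 3 weeks and 5.62 and 5.599 at 6 weeks. The 6-week arrays were lowest, and naive replicate 4 was the lowest of the rest. Ifit3 changed by -0.78 (adjusted p = 0.00534). Ifit1 stood at 7.23, 7.32, 7.64 and 6.96 in the naive arrays, 7.27 and 7.62 at 3 weeks and 6.46 and 6.69 at 6 weeks. Its 6-week arrays were below all others, and the change of -0.71 passed (adjusted p = 0.0114), though not under median centring (-0.51, adjusted p = 0.0837). Ifit2, by contrast, stood at 5.97, 5.99, 5.95 and 5.85 in the naive arrays, 5.94 and 6.04 at 3 weeks and 6.65 and 6.44 at 6 weeks. Both 6-week arrays were above the 6 others, and the change was 0.60 (95% interval 0.28 to 0.92, adjusted p = 0.00309).

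The largest rise was that of Samd9l. Its levels were 8.45, 8.34, 8.68 and 7.83 in the naive arrays, 8.43 and 8.66 at 3 weeks and 9.55 and 9.62 at 6 weeks. The 6-week arrays lay close together and above all others. The change was 1.26 (95% interval 0.76 to 1.76, adjusted p = 0.000312), a 2.39-fold rise that joint quantile normalization reduced to 0.48 (adjusted p = 0.0841). Stat2 stood at 7.74, 7.55, 7.56 and 7.47 in the naive arrays, 7.61 and 7.74 at 3 weeks and 8.28 and 8.26 at 6 weeks. The 6-week pair was again above the rest, and the change was 0.69 (adjusted p = 6.22e-05), reduced to 0.27 (adjusted p = 0.0732) under the joint scale.

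The other calls were Sp100, a nuclear body protein, at 0.87, Trim25 at 0.79, Dhx58 at 0.67, Oas3 at 0.56, Nmi at 0.51, Adar at 0.43, Eif2ak2 at 0.42, Irf9 at 0.38 and Dtx3l at 0.34, all higher. On the joint scale Oas3 (-0.21), Adar (-0.30) and Irf9 (-0.20) turned negative, and of the 9 only Dhx58 (0.69) and Eif2ak2 (0.73) still passed as higher. Oasl1, at 8.83, 8.67, 8.68 and 8.49 in the naive arrays, 8.68 and 8.77 at 3 weeks and 8.26 and 8.51 at 6 weeks, was called lower (-0.28, adjusted p = 0.0432) although 6-week replicate 2 lay within the range of the naive arrays, and median centring brought it to -0.08 (adjusted p = 0.619).

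Genes with the largest Mo falls did not pass in PMN in several cases. Irf7 stood at 9.54, 9.28, 9.15 and 9.25 in the naive arrays, 9.34 and 9.40 at 3 weeks and 8.74 and 8.998 at 6 weeks, with the 6-week pair lowest, and its change of -0.44 did not pass (adjusted p = 0.0943). On the joint scale it was -1.17 (adjusted p = 0.000619). Rtp4 stood at 10.15, 10.11, 10.13 and 9.78 in the naive arrays, 10.08 and 10.48 at 3 weeks and 9.29 and 9.61 at 6 weeks, also lowest at 6 weeks, with -0.59 (adjusted p = 0.11) and -1.38 (adjusted p = 0.000722) on the joint scale. Ifi44l stood at 6.36, 6.89, 6.28 and 6.48 in the naive arrays, 6.62 and 6.49 at 3 weeks and 6.07 and 6.20 at 6 weeks, with -0.37 (adjusted p = 0.398). Oasl2 stood at 7.54, 7.36, 7.36 and 7.27 in the naive arrays, 7.72 and 7.58 at 3 weeks and 7.07 and 7.44 at 6 weeks, where the groups overlapped, with -0.13 (95% interval -0.58 to 0.32). In both Irf7 and Rtp4 the intervals reached from a clear fall to just above 0.

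For 8 further genes with large Mo falls the PMN change did not pass. Oas2 had levels of 8.99, 8.63, 8.90 and 8.66 in the naive arrays, 8.71 and 8.83 at 3 weeks and 8.76 and 9.11 at 6 weeks, with a change of 0.14. Usp18 had 7.13, 7.12, 7.11 and 6.78 in the naive arrays, 7.19 and 7.19 at 3 weeks and 6.68 and 7.12 at 6 weeks, with -0.13. Parp14 had 8.74, 8.63, 8.60 and 8.41 in the naive arrays, 8.55 and 8.66 at 3 weeks and 8.47 and 8.76 at 6 weeks, with 0.02. For these 3 genes the 6-week and earlier arrays overlapped. Zbp1 had 7.03, 6.95, 6.92 and 6.71 in the naive arrays, 6.87 and 7.07 at 3 weeks and 6.95 and 7.05 at 6 weeks, with 0.10. Ifih1 had 8.38, 8.24, 8.29 and 8.13 in the naive arrays, 8.14 and 8.29 at 3 weeks and 7.92 and 8.07 at 6 weeks, with -0.27 (adjusted p = 0.107). Both 6-week arrays of Ifih1 were below the naive ones. For Zbp1, 6-week replicate 1 lay among the naive arrays and replicate 2 just above them. Mx1 had 5.54, 5.68, 5.59 and 5.64 in the naive arrays, 5.76 and 5.54 at 3 weeks and 5.39 and 5.51 at 6 weeks, with -0.16. Mx2 had 5.41, 5.59, 5.56 and 5.51 in the naive arrays, 5.63 and 5.39 at 3 weeks and 5.43 and 5.20 at 6 weeks, with -0.20. The 6-week Mx1 arrays were just below the rest, and those of Mx2 overlapped with them. Lgals3bp had 8.07, 8.34, 7.96 and 8.37 in the naive arrays, 8.31 and 8.11 at 3 weeks and 8.06 and 7.94 at 6 weeks, with -0.19. Its groups overlapped too. The joint quantile scale changed this picture for 4 of the 8, which passed as lower there: Oas2 at -0.61 (adjusted p = 0.0421) and Parp14 at -0.65 (adjusted p = 0.00193), both turned from above 0, Ifih1 at -0.78 (adjusted p = 0.000101) and Lgals3bp at -0.69 (adjusted p = 0.0116). Mx1 (0.10) and Mx2 (0.06) turned to above 0 there without passing.

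The comparison of 6 with 3 weeks in PMN rested on 2 arrays a side and gave 10 genes higher and 6 lower, against 23.7% and 34.9% of all genes; median centring gave 13 and 4 and joint quantile normalization 4 and 15. Of all 19938 genes, centring called 5419 higher and 2306 lower here, and the joint scale 3833 and 4465. Slfn5 (-1.54), Rsad2 (-1.11), Ifit3 (-1.08) and Bst2 (-0.59) were lower under every scaling, and Dhx58 (0.52) and Ifit2 (0.55) higher. Leaving out 3-week replicate 1 left 10 calls of 16. From naive to 3 weeks 0 of the 41 genes passed in PMN, as did 0% of all genes in limma; 0 of the 41 had an unadjusted p below 0.05, against 1.88% of all genes. The 3 PMN comparisons share arrays, and their values are given side by side only.

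The change from naive to 6 weeks differed between the subsets for most of the genes. For 31 of the 41 the Mo change was more negative than the PMN change (adjusted p below 0.05 for the difference, limma), against 11% of all genes, and for 0 it was more positive, against 6.47%. The median difference was -0.98, against 0.07 for all genes. Samd9l differed most, at -2.73 (95% interval -3.41 to -2.04, adjusted p = 2.89e-05), followed by Oasl2 at -2.17 and Ifi44l at -2.09. Stat2 had the smallest adjusted p (4.26e-06), at -1.52. Ifit2 differed by -1.74 and Oas3 by -1.96. Under both scalings 25 of the 31 passed; on the joint scale Irf7 (-0.94, adjusted p = 0.0537), Rtp4 (-0.74, adjusted p = 0.215), Irf9 (-0.44), Adar (-0.42), Trim30a (-0.39) and Trafd1 (-0.23) did not. Without 6-week PMN replicate 2 the count was 21.

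Of the 10 genes without a called difference, Slfn5 and Bst2 fell in both subsets. The difference was 0.01 for Slfn5 (95% interval -0.72 to 0.74) and 0.12 for Bst2 (-0.18 to 0.42), so the interval for Slfn5 reached 0.74 above 0 and nearly as far below. Rsad2 (-0.39), Ifit1 (-0.84) and Oasl1 (-0.44) were also lower in both subsets and not called as different, though Ifit1 and Oasl1 lost the PMN call under median centring. Nmi, Ifi35, Isg20, Ifi27l2a and Tor3a made up the 10. Across the 41 genes the Mo and PMN changes at 6 weeks had a Pearson r of 0.462, a description across genes, which are not independent replicates. The difference in the change to 3 weeks passed for 0 of the 41 genes, against 0.00502% of all genes, and 1 of them had an unadjusted p below 0.05.

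**Figure D4:**
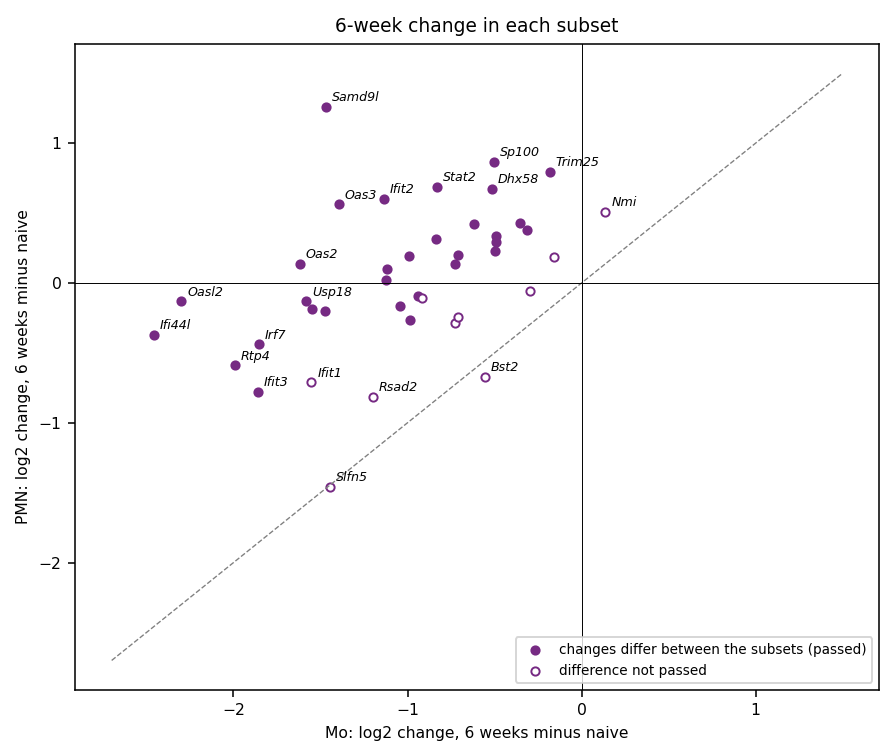
Log2 change from naive to 6 weeks in Mo (horizontal) and in PMN (vertical) for each of the 41 genes; the dashed line marks equal change, and filled points differ between the subsets at an adjusted p below 0.05. Of the 41 points, 31 are filled and all of those lie above the line, while Slfn5 and Bst2 lie close to it; PMN changes of Irf9, Oas2, Oas3, Cmpk2, Adar, Trim30a, Parp14 and Trafd1 turned negative under joint quantile normalization.

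On a joint quantile scale over all 17 arrays, given as a description with no test, all Mo arrays lay above all PMN arrays for 27 of the 41 genes in naive mice and for 27 at 3 weeks. At 6 weeks this held for 9, PMN arrays lay above for 12, and the arrays overlapped for 20. The share of all genes separated in this way was not counted, so these counts are not read as particular to the 41 genes. The median difference between the subsets over the 41 genes was 0.57 in naive mice, 0.56 at 3 weeks and -0.11 at 6 weeks, where the median over all genes stayed between -0.07 and -0.02. Of the 27 genes with Mo above PMN in naive mice, 17 had overlapping arrays at 6 weeks, 9 still had Mo above and 1 had PMN above. Their median difference went from 1.18 to 0.05, with a range at 6 weeks from -0.51 to 2.16, the highest being Ifi44l. These 27 were picked by their naive values, so their naive difference is high by selection. The 5 genes with PMN above in naive mice went from -0.85 to -0.88, and the 9 that overlapped from -0.07 to -0.70. In naive mice 3 Mo arrays were set against 4 PMN arrays, and at 6 weeks against 2, so the counts are not like for like.

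**Figure D5:**
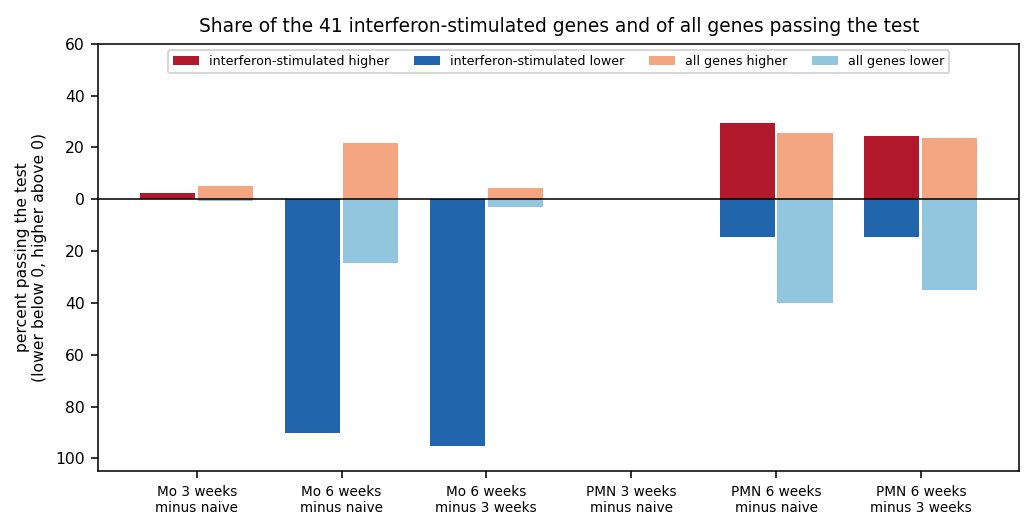
Percent of the 41 interferon-stimulated genes (dark bars) and of all 19938 genes (pale bars) that passed at an adjusted p below 0.05 in each comparison, higher above 0 and lower below 0. The dark bar reaches 90.2% lower for Mo at 6 weeks against naive and 95.1% against 3 weeks, where all genes reach 24.4% and 3.13%; in PMN at 6 weeks the dark and pale bars are nearer, and the PMN split between higher and lower changed with the scaling.

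Several of the genes lie side by side, and neighbours did not always change alike (coordinates are of RefSeq genes on GRCm38.p6). Ifit2, Ifit3 and Ifit1 lie within chr19:34550550-34650009, and in PMN Ifit2 rose while the other two fell. Rsad2 and Cmpk2 lie within chr12:26442743-26479837, with PMN changes of -0.81 and 0.20 and Mo changes of -1.20 and -0.71. Oas3, Oas2 and Oas1a lie within chr5:120730333-120907544 and all fell in Mo. Mx1 and Mx2 lie within chr16:97447035-97560901, and Parp14, Dtx3l and Parp9 within chr16:35831892-35972621, and these also fell in Mo. Grouped by their PMN result at 6 weeks, after the values were seen, the response element core described above occurred in 5 of the 6 genes that were lower (Ifit1, Ifit3, Rsad2, Bst2 and Slfn5), in 2 of 11 that were higher (Stat2, and Oas3, which was negative on the joint scale) and in 2 of 13 that did not pass (Oas1a and Trim30a). On the joint scale neither Stat2 nor Oas3 passed as higher, and 17 of the 41 genes were lower. Under median centring Ifit1 lost its call, so this grouping depends on the scaling. Irf7, Oasl2 and Ifi44l, among the largest falls in Mo, had no such core in this window.

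Counts for other genes of the pathway are read against the shares of all genes called, which were 21.8% higher and 24.4% lower in Mo and 25.5% and 40% in PMN at 6 weeks. Among 8 receptor and JAK-STAT genes, 1 rose (Tyk2, 0.39) and 1 fell (Jak1, -0.30) from naive to 6 weeks, and the receptor subunits Ifnar1 (-0.14, adjusted p = 0.241) and Ifnar2 (-0.12, adjusted p = 0.427) did not pass; on the joint scale 0 rose and 5 fell, among them Ifnar1 at -0.49. In PMN 7 of the 8 rose, including Ifnar1 (0.37), Ifnar2 (0.71) and Stat3 (0.73), whereas the joint scale gave 1 higher and 4 lower, with Ifnar1 at -0.26, so their direction in PMN depends on the scaling. Of 7 interferon genes measured, 2 fell in Mo (Ifna2, -0.75, and Ifna5, -0.76) and 3 in PMN; Ifnb1 did not pass in either (-0.30, adjusted p = 0.0711, and -0.31, adjusted p = 0.0629). These features are dim. For comparison, 36 olfactory receptor genes were taken, most of which blood cells are not known to use. Their median change was -0.40 in Mo, with 24 lower, and -0.51 in PMN, with 28 lower.

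Among 18 other sensors, adaptors and interferon regulatory factors, 6 rose and 5 fell in Mo at 6 weeks, shares near those of all genes. The falls were led by Ddx58, the gene for RIG-I, at -1.48, and Irf4 at -1.10, and the rises by the endotoxin receptor gene Tlr4 at 1.16 and the kinase gene Ikbke at 1.07, all 4 called under both scalings, while the joint scale gave 3 higher and 7 lower in all. Of 9 negative regulators, 5 rose and 1 fell (1 and 2 on the joint scale), from Rnaseh2b, a subunit of the RNase that removes ribonucleotides from DNA, at 1.47, to the nucleotide hydrolase Samhd1 at -0.71. Genes chiefly driven by interferon gamma moved in the same direction as the type I targets in Mo: 9 of 16 fell and 0 rose, with a median of -0.52 (13 fell on the joint scale), led by the chemokine gene Cxcl10 at -1.52 and the guanylate-binding protein gene Gbp4 at -1.28. In PMN 4 rose and 4 fell, with 0 and 5 on the joint scale. Of 8 markers of plasmacytoid dendritic cells, a major source of type I interferon, 4 were lower in Mo at 6 weeks, with a median of -0.36, and 7 in PMN, with a median of -0.45; their summed intensity was 10.20 to 10.32 in Mo at 6 weeks against 10.47 to 10.56 in naive mice, and the defining gene Siglech lay between 6.33 and 6.97 in every Mo array. The 36 olfactory receptor genes had medians of -0.40 in Mo and -0.51 in PMN, so the median falls of these markers were no larger than theirs. The part of such cells in the results was not tested.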

How the data were processed

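RNA from 17 sorted samples was hybridised to Affymetrix Mouse Gene 1.0 ST arrays. The deposited values are linear intensities that the authors normalized with RMA, per the submitters' processing notes; the RMA version is not given in the sources used here. The design had assumed log2 values, so log2 was taken here. Of 35557 features, 21789 named 1 gene in the platform annotation; the feature with the highest mean stood for each of 19938 genes, and gene names were matched to RefSeq (GRCm38.p6).

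A model with 6 group means was fitted to all arrays (limma version 3.58.1, run under R version 4.3.3; lmFit and eBayes), with Benjamini-Hochberg adjustment over all genes, a threshold of 0.05 and 95% intervals. The number of arrays limits the precision. Scripts were tested on simulated data with independent noise in each gene and array. In the real arrays many genes shifted together, so that test says nothing about false calls from such shifts. Alternatives changed the scaling, low-intensity filters, feature choice, variance model, array weights, replicate block and the arrays included. As a check of pairing, deviations from the group means were correlated between arrays. Same-numbered Mo arrays at 3 and 6 weeks gave r 0.628, 0.284 and 0.475. Replicate 2 at 3 weeks correlated more with replicate 3 at 6 weeks (0.324) than with replicate 2 (0.284). Same-numbered Mo pairs with naive arrays ranged from -0.089 to 0.609, and PMN pairs from -0.461 to 0.021. The check cannot settle pairing, since deviations from a group mean are not independent of each other. Over all Mo pairs the median was 0.475 with the same number and -0.3 with different numbers. The members and lists were chosen with earlier results of these data known. Values in every array are given for the members with the 2 largest absolute Mo changes at 6 weeks in each role group, for the largest PMN change, and for members called against the members' median; from other lists, up to 2 called genes in each direction and any ligand, receptor, JAK or STAT gene could be named. Ifit2 was added for its PMN contrast with its neighbours, after its values were seen.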

Additional observations from a re-analysis of the deposited data

Results flagged for a closer look

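The levels of 3 genes in 1 array stood apart from the other PMN arrays of naive mice. In naive PMN replicate 4, Ifit3 was at 6.03 (next lowest 6.48), Usp18 at 6.78 (next 7.11) and Rtp4 at 9.78 (next 10.11), each further from the others than Dixon's critical value for groups of this size. These are 3 of 41 genes tested, and chance alone gives some such values. Only 4 of the 41 genes lay above the group mean in this array. Leaving it out gave 10 genes higher and 6 lower in PMN at 6 weeks against naive.

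The change from naive to 6 weeks differed between Mo and PMN in the fitted model for 31 genes, Mo minus PMN on the log2 scale. The 10 largest differences were Samd9l -2.73, Oasl2 -2.17, Ifi44l -2.09, Oas3 -1.96, Oas2 -1.76, Ifit2 -1.74, Stat2 -1.52, Usp18 -1.45, Irf7 -1.42 and Rtp4 -1.40. The next 10 were Sp100 -1.37, Lgals3bp -1.36, Mx2 -1.27, Zbp1 -1.22, Dhx58 -1.19, Oas1a -1.18, Herc6 -1.15, Parp14 -1.14, Ifit3 -1.08 and Eif2ak2 -1.04. The remaining 11 were Trim25 -0.98, Cmpk2 -0.91, Mx1 -0.88, Trim30a -0.87, Xaf1 -0.85, Dtx3l -0.83, Parp9 -0.79, Adar -0.78, Trafd1 -0.73, Ifih1 -0.72 and Irf9 -0.70. Under both joint quantile normalization and median centring 25 of them passed; Irf7 (-0.94), Rtp4 (-0.74), Irf9, Adar, Trim30a and Trafd1 did not pass under the former.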

How the results depend on the processing

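The falls in Mo at 6 weeks were called for 33 to 40 of the 41 genes against naive and for 36 to 41 against 3 weeks in every setting run, and for 35 to 38 and 37 to 41 when 1 array was left out. The count for Mo at 3 weeks was the least stable. It was 4 with median centring, 0 with joint quantile normalization, 0 with a floor at log2 6 and 4 without dim genes. It was 33 with array weights, whose estimation stopped before full convergence and which called 15177 of all 19938 genes. With the subset fitted alone it was 0, as at an adjusted p below 0.01. When 1 array was left out it ran from 0 to 15, and the setting with 15 called 8911 of all genes. With the replicate number as a block it was 5; the other counts under the block were 36, 39, 0, 14, 17, 0 and 26, in the order of the comparisons in the report. Whether replicate numbers pair arrays is not settled in either subset (processing section), and the block changed no other count by over 1.5 times. In PMN at 6 weeks 11 genes were called against naive and 9 against 3 weeks at an adjusted p below 0.01, and leaving out 1 array gave 10 to 22 and 10 to 20. The difference between the subsets at 3 weeks was called for 17 genes with array weights and for 0 to 2 with 1 array left out, and that at 6 weeks for 21 to 35; PMN at 3 weeks gave 0 throughout the latter. Joint quantile normalization reversed the PMN change from naive of Irf9 (-0.20), Oas2 (-0.61), Oas3 (-0.21), Cmpk2 (-0.44), Adar (-0.30), Trim30a (-0.58), Parp14 (-0.65) and Trafd1 (-0.56), and that from 3 weeks of Cmpk2 (-0.54), Adar (-0.30), Trim25 (-0.015), Parp14 (-0.67) and Trafd1 (-0.45). The cause of these differences was not tested. Groups of 2 PMN arrays, dim features and the unknown normalization across subsets limit the PMN values.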
